A study of Mus musculus with 7 samples.

Results

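In mouse embryonic stem cells (ESCs), 532 binding sites of the POU-domain factor Oct1 (gene Pou2f1) were listed before differentiation and were listed again at day 3 and at day 6 of differentiation towards mesoderm. These lasting sites were chosen by the Oct1 peak calls themselves: a site is a peak of the ESC Oct1 list that overlaps, by at least 1 bp, a peak of the day 3 list and a peak of the day 6 list. They made up 3.0% of the 17709 ESC Oct1 peaks. Seen from the other lists, they took in 532 (10.9%) of the 4867 day 3 peaks and 535 (6.90%) of the 7758 day 6 peaks. Of the 532 sites, 239 also overlapped a peak of Oct4 (gene Pou5f1) in ESCs and 293 did not.

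The series used chromatin immunoprecipitation followed by sequencing (ChIP-seq) on parental cells, with an Oct1 antibody in ESCs, at day 3 and at day 6, and an Oct4 antibody in ESCs. For the mesodermal course, the medium held Bmp4 for 2 days, followed by 4 days with Rspo3 and LDN-193189, an inhibitor of BMP receptors. Each of the 4 conditions was 1 library, sequenced as read pairs of 50 bp at a stated depth of 100 M pairs, so a difference between conditions has no replicate error to set it against, and no test across libraries was made. All groups used here carry the parental genotype, with no further detail of the line given, and peak lists measure no expression, so the cell types were not checked by markers. The authors' peak score has no stated unit and is used only to rank peaks within a list (rank 1 is the highest score). Coordinates of peaks are in mm10, as deposited. A percentile is the mid-rank of the score within its list, from 0 for the lowest to 100 for the highest, with tied scores sharing their mean rank. Intervals in parentheses are exact 95% Clopper-Pearson intervals that cover the counting of peaks alone, and peaks are not replicates.

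Oct1 and Oct4 belong to the POU family, whose paired DNA-binding domains recognise the octamer ATGCAAAT. Oct1 is present in most cell types and is known for acting at the promoters of histone H2B genes and of small nuclear RNA (snRNA) genes. Oct4 is limited to pluripotent and germ cells, is a core regulator of ESC identity and falls as cells differentiate. Both factors can also bind as dimers, for instance on a palindromic element called MORE, in which 2 copies of the half-site ATGCAT follow each other with no gap.

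The sequences below were taken from promoter windows that lasting sites overlap, and show where the octamer or the MORE stands in them. They come from RefSeq (GRCm38.p6), run 5′ to 3′ on the strand of the gene, and end before its annotated start. Capitals mark the octamer or, in Kdm2b, the MORE, on either strand. Neurog1, Lgr4, Srf and Gadd45a were picked as examples from the 45 sites with an octamer after their values were seen, and do not stand for the rest.
Neurog1, chr13:56252281-56252348, minus strand: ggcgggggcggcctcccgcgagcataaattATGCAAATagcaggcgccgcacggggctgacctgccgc
Lgr4, chr2:109917568-109917635, plus strand: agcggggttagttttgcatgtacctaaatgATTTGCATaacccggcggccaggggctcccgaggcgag
Srf, chr17:46556290-46556357, minus strand: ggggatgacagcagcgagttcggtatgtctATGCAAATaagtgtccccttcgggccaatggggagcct
Gadd45a, chr6:67037440-67037534, minus strand: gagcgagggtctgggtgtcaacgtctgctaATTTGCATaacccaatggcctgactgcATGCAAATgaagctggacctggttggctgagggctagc
Kdm2b, chr5:122900358-122900429, minus strand: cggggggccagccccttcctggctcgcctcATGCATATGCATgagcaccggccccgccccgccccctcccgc

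The next windows belong to the genes Oct1 is best known for, in that each lies between a pair of divergent genes of which one makes a histone H2B or a small structural RNA. H2ac6 faces H2bc4, Parp2 faces the RNase P RNA gene Rpph1, and Ccdc107 faces the RNase MRP RNA gene Rmrp.
H2ac6, chr13:23684052-23684119, minus strand: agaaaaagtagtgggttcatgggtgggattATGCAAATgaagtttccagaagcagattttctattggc
Parp2, chr14:50807830-50807897, plus strand: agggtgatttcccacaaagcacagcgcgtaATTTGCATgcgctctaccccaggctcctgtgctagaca
Ccdc107, chr4:43493244-43493311, plus strand: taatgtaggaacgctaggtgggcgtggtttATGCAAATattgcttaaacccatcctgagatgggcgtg

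Plppr2 and Cables2 held the most octamers of any lasting site, 4 and 3. Elf3 and Fbxo48 are 2 of the few windows with an octamer at sites that also had an Oct4 peak.
Plppr2, chr9:21936777-21937009, plus strand: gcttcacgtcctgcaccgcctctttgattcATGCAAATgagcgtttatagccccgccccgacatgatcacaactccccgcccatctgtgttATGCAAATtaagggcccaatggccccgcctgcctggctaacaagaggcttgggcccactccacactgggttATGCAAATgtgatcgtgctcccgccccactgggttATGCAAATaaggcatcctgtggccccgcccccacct
Cables2, chr2:180273487-180273701, minus strand: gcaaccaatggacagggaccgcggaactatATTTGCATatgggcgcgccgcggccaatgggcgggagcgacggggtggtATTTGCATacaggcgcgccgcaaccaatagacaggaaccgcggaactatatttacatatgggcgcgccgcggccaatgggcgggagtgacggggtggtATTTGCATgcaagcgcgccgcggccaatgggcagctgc
Elf3, chr1:135258583-135258650, minus strand: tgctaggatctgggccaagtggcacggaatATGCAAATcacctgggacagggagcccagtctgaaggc
Fbxo48, chr11:16951293-16951360, plus strand: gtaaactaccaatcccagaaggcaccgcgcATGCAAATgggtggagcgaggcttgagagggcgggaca

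The lasting sites stood high in the ESC Oct1 list. Sites without Oct4 stood high at day 3 and day 6 too, while sites with Oct4 were near the middle of those lists. In the ESC Oct1 list the median percentile was 96.4 for the 293 sites without an Oct4 peak and 93.3 for the 239 sites with one. At day 3 the medians were 91.8 and 58.2, and at day 6 they were 86.0 and 50.3. The same order, at lower values, was seen in ESC Oct1 peaks that were not lasting. Those listed again at day 3 only had day 3 medians of 36.2 without and 29.6 with Oct4. Those listed again at day 6 only had day 6 medians of 22.9 and 9.94. Because the rule used these 3 Oct1 lists, the percentiles are a description. Of all 532 sites, 331 (62.2%) lay in the highest 10% of the ESC list, 200 (37.6%) in that of day 3 and 153 (28.8%) in that of day 6. In the highest 10% of every Oct1 list were 100 of the 293 sites without Oct4 and 22 of the 239 with Oct4. Both kinds reached far down the lists, to rank 7744 of 7758 at day 6 with Oct4 and 7616 without, and to rank 15364 of 17709 in ESCs with Oct4 and 17633 without.

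**Figure D1:**
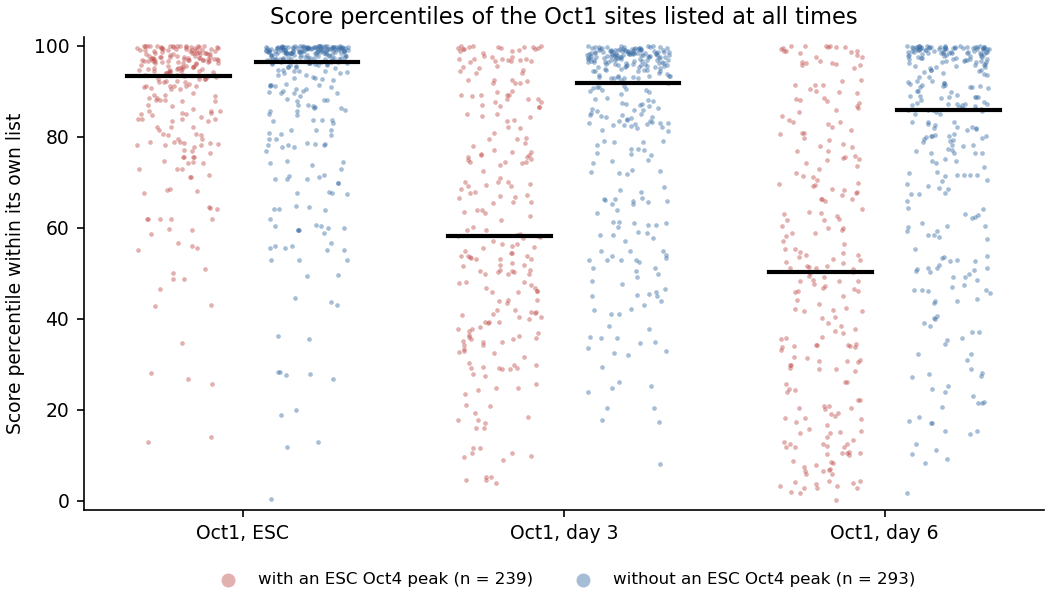
Percentile of the authors' score within the ESC, day 3 and day 6 Oct1 list (vertical axis, 0 to 100) for each of the 532 lasting sites, with (red) and without (blue) an ESC Oct4 peak; black bars are medians. The medians lie close together in ESCs (93.3 and 96.4) and far apart at day 3 (58.2 and 91.8) and day 6 (50.3 and 86.0).

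The rule required the Oct1 peaks of a site to overlap, which keeps their midpoints close. The midpoint of the day 3 peak was a median of 62.5 bp from that of the ESC peak, the day 6 midpoint 102.5 bp, and the Oct4 midpoint 50 bp (n = 239). For ESC Oct1 peaks listed again at one later time only, the medians were 50 bp at day 3 and 70 bp at day 6. Of the 532 sites, 6 overlapped a later peak by under 200 bp, and a rule of mutual coverage by 50% or more, in place of 1 bp, left 414 sites. The smallest overlap, 30 bp, was at a site inside the lncRNA gene Gm33669 (ESC rank 6503), which shares its day 3 and day 6 peaks with a neighbouring lasting site. The next was 50 bp, inside Lipe, the gene of hormone-sensitive lipase (ESC rank 9066). Just outside the rule, an ESC peak near Catsperd (rank 4598) with a day 3 peak ended 40 bp from a day 6 peak, and one near Gm26243 (rank 95) ended 80 bp from a day 6 peak.

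Among the 10 highest ESC scores without Oct4, the site inside Kdm2b, the gene of a histone H3 demethylase that recruits Polycomb, ranked 4 in ESCs, 4 at day 3 and 2 at day 6 (scores 88299, 67255 and 28086). Its midpoint is 29756 bp inside Kdm2b as annotated, but it overlaps windows of RefSeq starts inside the gene. The MORE shown above begins 49 bases before one of these starts and lies 26 bp from the peak midpoint. Only 3 of all 32851 promoter windows held a MORE, and 2 of them are the overlapping windows of this site. The site at Zmiz2, a transcriptional coactivator gene, ranked 3, 3 and 1. Acsl3, which encodes an acyl-CoA synthetase and shares its site with a Utp14b start, ranked 8, 6 and 8. Esrra, an orphan nuclear receptor of mitochondrial metabolism, ranked 19, 13 and 19. The site between the lncRNA gene Gm20753 and Phlpp1, a phosphatase gene, ranked 21, 14 and 9. The others of the 10 were nearest to Crlf2, Gm20783, a tRNA gene (n-TIaat16), Tnks1bp1 and the snRNA gene Gm24950. All 10 ranked at most 28 at day 3, and 8 of them ranked at most 19 at day 6.

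Among the 10 highest ESC scores with Oct4, the order changed more between lists. Jag2, which encodes a Notch ligand, ranked 16 in ESCs, 7 at day 3, 10 at day 6 and 921 for Oct4. Fbxo47 ranked 7, 11 and 6, and Flrt1, a gene of a membrane protein that binds FGF receptors, ranked 9, 8 and 15. At Polr2a, the gene of the largest subunit of RNA polymerase II, the peak ranked 2, 2 and 7, and at Ndufa4l2 1, 1 and 4. Others stood far lower at day 6: the site near Rpp25l ranked 12 in ESCs, 12 at day 3 and 1668 at day 6, the site inside Zbtb40 ranked 18, 25 and 3849, and that at the snRNA gene Gm22973 ranked 20, 24 and 1506. The remaining 2 were Rnu2-10, a U2 snRNA gene (15, 29 and 120), and the ribosomal RNA pseudogene Rn18s-rs5 (11, 20 and 671), whose ESC peak is 5750 bp wide. Ranks of lists of different lengths do not measure a change in binding.

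The reverse order also occurred. The lncRNA gene Gm32328, on chromosome 6 and 12174 bp from the site named after it, was nearest to the peak with the fifth rank at day 6 (score 17966), which ranked 526 in ESCs and 65 at day 3. Pou2f1, the gene of Oct1 itself, had a lasting site 249 bp inside one end of the gene (chr1:166002151-166002850), with rank 6234 in ESCs, 517 at day 3 and 219 at day 6 and no Oct4 peak. Of 16 POU family genes, 1 (6.25%) had a lasting site inside or within 10 kb, beside 3.68% of all protein-coding genes. The window of its start held no octamer of the exact letters searched.

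Whether the lasting sites coincide with Oct4 in ESCs was read from the Oct4 library, which the rule did not use. An Oct4 peak was listed at 239 of 532 lasting sites, or 44.9% (40.6 to 49.3), beside 59.1% of all 17709 ESC Oct1 peaks and 59.5% (58.8 to 60.3) of the 17177 that were not lasting. The others differed among themselves, with 54.5% (51.4 to 57.6) for ESC Oct1 peaks listed again at day 3 only and 84.9% (81.9 to 87.5) for those listed again at day 6 only. Wider peaks overlap more readily, and the shares were not matched for width. The median ESC Oct1 peak width was 830 bp at lasting sites with Oct4 and 620 bp at those without. Over all ESC Oct1 peaks it was 680 and 580 bp. The share of the lasting sites was lower at gene ends. Within 1 kb of an annotated gene end, 37.3% (32.4 to 42.3) of 381 lasting sites had an Oct4 peak, beside 59.5% (57.6 to 61.3) of 2684 other ESC Oct1 peaks in that position. Farther from gene ends it was 64.2% (56.0 to 71.9) of 151 lasting sites, beside 59.5% (58.7 to 60.3) of 14493 others. A lower share at gene ends was also seen in the peaks listed again at day 6 only, with 74.1% (67.3 to 80.1) of 193 at gene ends and 89.5% (86.3 to 92.1) of 455 farther away. Among peaks in the highest 10% of ESC Oct1 scores and within 1 kb of a gene end, the shares were 37.6% (31.5 to 44.0) of 242 lasting sites and 51.8% (46.3 to 57.2) of 338 others, among which those listed again at day 3 only had 47.1% (37.1 to 57.2) and those at day 6 only 65.9% (50.1 to 79.5). Farther from gene ends, the highest 10% had Oct4 at 56.2% (45.3 to 66.7) of 89 lasting sites and 55.4% (52.4 to 58.4) of 1099 others. With all 4 lists cut down to their higher-scoring 50%, 314 sites met the rule and 24.8% (20.2 to 30) had an Oct4 peak, beside 47.9% of the ESC Oct1 peaks left.

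**Figure D2:**
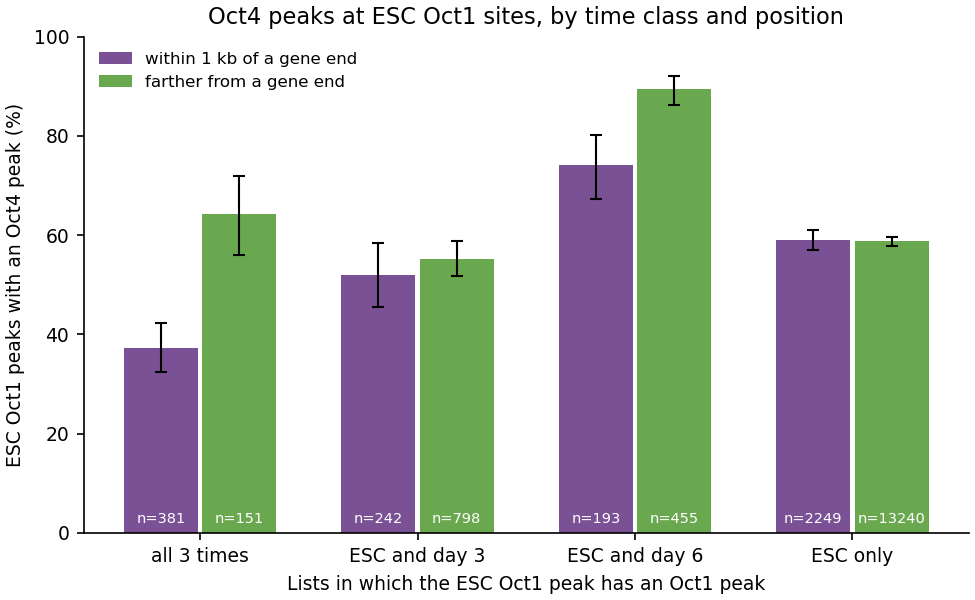
Percent of ESC Oct1 peaks that overlap an ESC Oct4 peak (vertical axis), by the lists in which the site has an Oct1 peak and by position within 1 kb of a gene end (purple) or farther (green); error bars are exact 95% intervals for counting, n is the number of peaks. For sites listed at all 3 times the share was 37.3% at gene ends and 64.2% farther away.

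The Oct4 peaks at lasting sites were ranked within the Oct4 list. The 239 Oct4 peaks had a median percentile of 87.0 in the Oct4 list, beside 64.4 for the 10251 Oct4 peaks at other ESC Oct1 sites, and for ESC Oct1 peaks listed again at day 3 only or at day 6 only the medians were 65.8 and 74.1. Of the 239 peaks, 112 (46.9%) were in the highest 10% of the Oct4 list, beside 16.2% of the 10251. These groups were not matched for Oct1 score. The median ESC Oct1 percentile was 93.3 for lasting sites with Oct4 and 49.1 for the other ESC Oct1 peaks with Oct4. Of the 5 highest, 3 were named after pseudogenes: after Rn18s-rs5 (Oct4 rank 1) came Pisd-ps2 (rank 16) and Gm18999 (24), then the site near Rpp25l (34) and the linker histone gene H1f2 (43). The Rn18s-rs5 peak had nearly the same bounds in the ESC Oct1 and Oct4 lists. On chromosome Y, 2 of 6 ESC Oct1 peaks were lasting. How the alignment placed reads of repeated genes is not given in the sources used here. The inputs were not analysed, so whether peaks shared by every list also stand out in input was not tested.

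Most lasting sites lay at gene ends. Their midpoint was within 1 kb of an annotated gene end in 381 of 532 cases, or 71.6% (67.6 to 75.4), beside 17.3% of all ESC Oct1 peaks and 14.5% (14.0 to 15.1) of those listed in ESCs only. The share was 23.3% (20.7 to 26.0) for ESC Oct1 peaks listed again at day 3 but not at day 6, and 29.8% (26.3 to 33.5) for those listed again at day 6 but not at day 3. Sites without Oct4 reached 81.6% (76.6 to 85.8), with a median distance of 186 bp, and sites with Oct4 59.4% (52.9 to 65.7), with a median of 361 bp. Among the peaks listed again at day 6 only, the shares were 51.0% (40.7 to 61.3) of 98 without Oct4 and 26.0% (22.4 to 29.9) of 550 with Oct4. The difference between lasting sites without and with Oct4 was smaller in shortened lists, at 80.5% (74.9 to 85.4) and 73.1% (61.8 to 82.5) with the higher-scoring 50% of each list, where the intervals overlap. With starts in the promoter table in place of gene ends, the shares were 73.6% (68.1 to 78.6) and 52.3% (45.7 to 58.9). Away from gene ends, 67 of the 239 sites with Oct4 lay inside a gene and 30 between genes, while of the 293 sites without Oct4 43 and 11 did so. Whether these lie in exons or introns was not analysed here. The site farthest from any gene was on chromosome X, 163831 bp from Asmt, with rank 7821 in ESCs (percentile 55.6), 3319 at day 3, 7405 at day 6 and 17334 for Oct4.

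**Figure D3:**
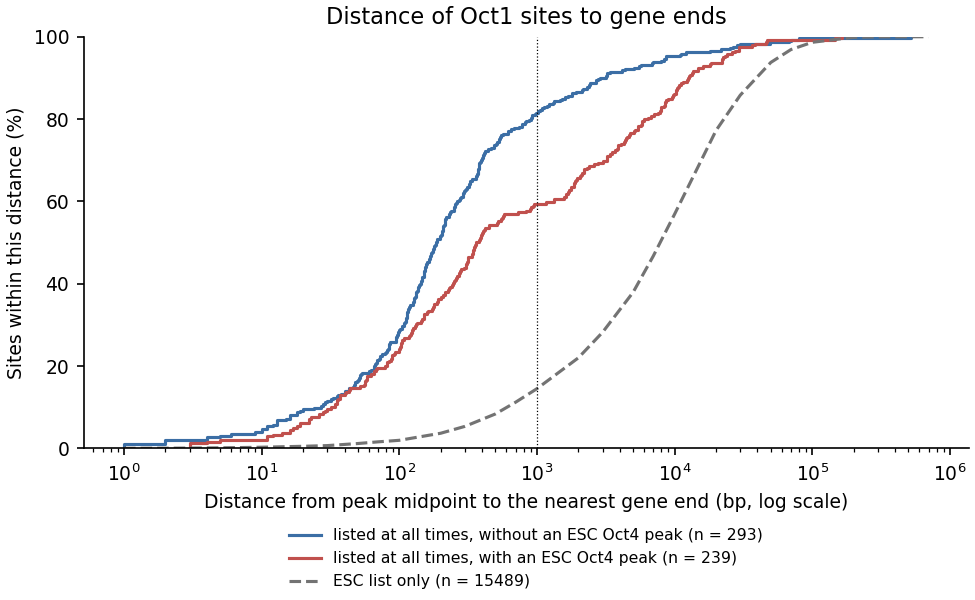
Cumulative percent of sites (vertical axis) within a given distance of the nearest annotated gene end (horizontal axis, bp, log scale), for lasting sites without (blue) and with (red) an ESC Oct4 peak and for peaks of the ESC Oct1 list only (dashed grey); the dotted line marks 1 kb. At 1 kb the curves stand at 81.6%, 59.4% and 14.5%.

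The nearest gene was protein-coding for 418 of the 532 sites (78.6%, beside 69.2% of all ESC Oct1 peaks). It was an lncRNA gene for 86 (16.2%, beside 23.3%) and a pseudogene for 12, and 515 different genes were named. Of the 523 sites on chromosomes with promoter windows, 316 (60.4%) overlapped at least 1 window, beside 7.44% of all ESC Oct1 peaks on those chromosomes. Of these 316, 58 (18.4%, 14.2 to 23.1) overlapped starts on both strands, as at divergent gene pairs. Of the ESC Oct1 peaks at a window that were not lasting, 7.01% (5.48 to 8.80) did so, but among those listed again at day 6 only it was 26 of 145 (17.9%, 12.1 to 25.2). Chromosome 7 held 71 lasting sites (13.3%, 10.6 to 16.5), beside 6.69% of all ESC Oct1 peaks, and chromosome 11 held 77 (14.5%, 11.6 to 17.7), beside 14.1%.

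The octamer was read from the promoter windows, each of 300 bases from 250 before a RefSeq start to 50 after it, on both strands and with overlaps counted. Of 420 windows at lasting sites, 50 held an octamer, which is 11.9% (8.97 to 15.4), beside 1.74% of all 32851 windows and 2.02% (1.16 to 3.26) of the 792 windows at ESC Oct1 peaks listed in ESCs only. Windows at lasting sites without Oct4 held one in 15.5% of 258 cases (11.3 to 20.5), and windows at sites with Oct4 in 6.17% of 162 (3.0 to 11.1). At ESC Oct1 peaks listed again at day 3 only, the share was 16% (10.8 to 22.6) of 162 windows, so it did not set the lasting sites apart from those. At peaks listed again at day 6 only, it was 2.60% (0.851 to 5.97) of 192 windows. The median share of G and C was 58.7% in windows at lasting sites, 56.3% at peaks listed again at day 6 only, 54.3% at those listed again at day 3 only or in ESCs only, and 52.7% over all windows. Overlapping windows of neighbouring starts share bases, and counted by site the share was 14.2% (10.6 to 18.6) of 316.

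**Figure D4:**
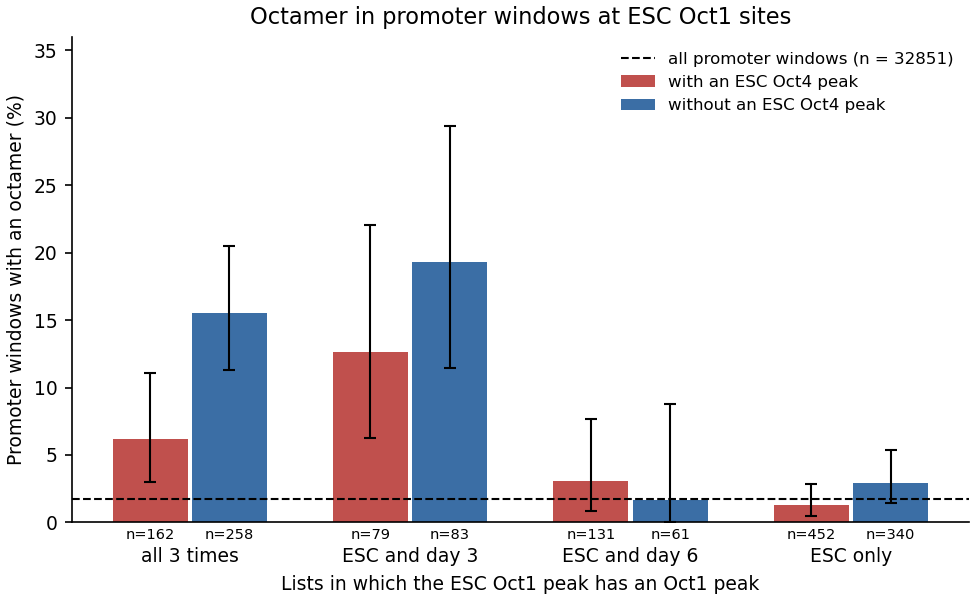
Percent of promoter windows with an octamer (vertical axis) at ESC Oct1 peaks with (red) and without (blue) an ESC Oct4 peak, by the lists in which the site has an Oct1 peak; error bars are exact 95% intervals for counting, n is the number of windows, and the dashed line is the share of all 32851 windows, 1.74%. The bars for all 3 times stand at 6.17% and 15.5%.

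Octamers went with the higher Oct1 scores. Of lasting sites at a window, 42 of 196 in the highest 10% of the ESC list had an octamer (21.4%, 15.9 to 27.8), and 3 of 120 below (2.50%, 0.519 to 7.13). By day 6 score, it was 26 of 94 in the highest 10% (27.7%, 18.9 to 37.8) and 19 of 222 below (8.56%, 5.23 to 13). Within the highest 10% of ESC scores, sites without Oct4 held one in 28.2% of 124 cases (20.5 to 37.0) and sites with Oct4 in 9.72% of 72 (4.00 to 19.0). For peaks listed in ESCs only, the share in the highest 10% was 8.0% of 100 (3.52 to 15.2), and for those listed again at day 3 only 29.2% of 65 (18.6 to 41.8). The Cables2 site, with 3 octamers, ranked 69 in ESCs, 72 at day 3 and 16 at day 6. The Plppr2 site, with 4, ranked 84, 71 and 30.

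The octamers lay near the middle of the peaks. The 45 sites held 58 octamers at distinct places, all of them inside the ESC peak and before the start of at least 1 window, and 46 of the 58 (79.3%) were within 100 bp of the peak midpoint, where 55.1% of the bases of these windows inside the peaks lie. Distances ran from -214 to 249 bp, with a median size of 41.5 bp. Of the 45 sites, 35 held 1 octamer, 8 held 2, 1 held 3 and 1 held 4. Besides those printed, sites with an octamer included H3f3b, a replication-independent histone H3 gene (ESC rank 104), E2f3, a cell-cycle factor gene with 2 octamers (99), Srebf2, a regulator of cholesterol synthesis (213), and Pim2, a kinase gene with 2 (282). Srebf2 ranked 47 and Med16, a Mediator subunit gene whose site also lies 475 bp from the snRNA gene Gm24019, 44 at day 6, from 213 and 592 in ESCs.

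**Figure D5:**
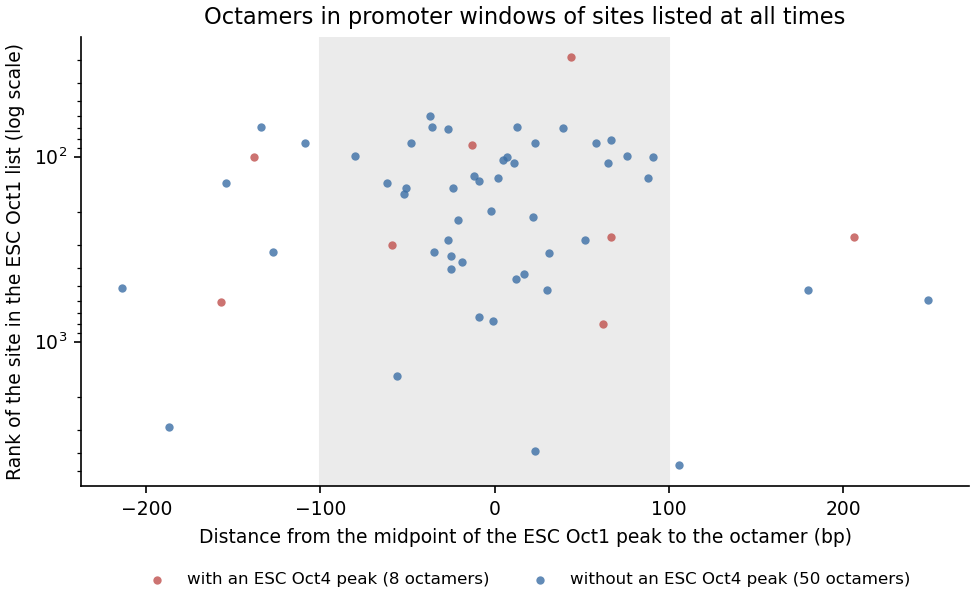
Distance from the midpoint of the ESC Oct1 peak to each octamer in a promoter window (horizontal axis, bp) against the rank of the site in the ESC Oct1 list (vertical axis, log scale, rank 1 at the top), with (red, 8 octamers) and without (blue, 50 octamers) an ESC Oct4 peak. The grey band spans 100 bp to either side and holds 46 of the 58 octamers.

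A composite of a Sox site and an octamer (ATTGTN followed by the octamer), the form in which Oct4 and Sox2 bind together, was in 0 of the 420 windows, and in 6 of all 32851. The palindromic Smad element GTCTAGAC, which binds Smad3 and Smad4, was in 2 windows, both at the site between the histone genes H2ac22 and H2bc22, and in 0.213% of all windows. These letters are exact, and a window without them says nothing of binding by the factor.

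Genes of small structural RNAs were among the lasting sites. The nearest gene was an snRNA gene at 10 of 532 sites (1.88%, 0.905 to 3.43), beside 0.565% of all ESC Oct1 peaks, and was Rpph1 or Rmrp at 2 more. At other sites the midpoint lies inside, or nearer to, another gene. In all, 23 sites (4.32%, 2.76 to 6.42) had their midpoint within 1 kb of an end of an snRNA, RNase P or RNase MRP gene. Of the 17177 ESC Oct1 peaks that were not lasting, 21 did so (0.122%, 0.0757 to 0.187). Of those 21, 12 were among the 1040 peaks listed again at day 3 only (1.15%, 0.598 to 2.01) and 0 among the 648 listed again at day 6 only (upper bound 0.568%). Of these 23 sites, 19 had no Oct4 peak, and nor did 18 of the 21 others. The median rank of the 23 was 62 in ESCs, 58 at day 3 and 606 at day 6. This count was added after seeing the data. Of the first 12, all midpoints lay 54 to 288 bp from the end of the gene, and 10 of the 12 had no Oct4 peak. Their ranks ran from 15 to 226 in ESCs (median 64), from 24 to 114 at day 3 and from 120 to 3292 at day 6. Rnu12, the U12 snRNA gene of the minor spliceosome, ranked 67, 78 and 306. Rn7sk, whose RNA restrains the elongation factor P-TEFb, ranked 117, 95 and 3292. Rpph1 ranked 70, 114 and 273, and the octamer in the window of its neighbour Parp2 lies 89 bp from the end of Rpph1 and 56 before the Parp2 start. At Rmrp (130, 75 and 231) the octamer lies 215 bp from the gene. Rnu2-10, Gm24950 and Gm23971 stand within one run of 3 lasting sites on chromosome 11 (chr11:101641171-101658500), 1 of them with Oct4. Copies of snRNA genes resemble each other, so reads of one may be counted at another.

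There were 9 runs of 3 or more lasting sites, each within 50 kb of the next. ESC Oct1 peaks as a whole stand close together too, so that 9185 of 17709 were left when those within 10 kb of another were taken out, and the runs are given as a description. The longest held 4 sites, none with Oct4. One lies at the snRNA genes Gm25360, Gm23472, Gm24497 and Gm25939, the last 2 inside the lncRNA gene D230017M19Rik (chr1:72225691-72255180, ESC ranks 43, 226, 60 and 98). The other lies at the genes of U3, a small RNA of ribosomal RNA processing, namely Rnu3b1, Rnu3b3, Rnu3b4 and Rnu3b2 (chr11:87442671-87471670), inside LOC115487798 and Tex14. Their midpoints were 86 to 147 bp from the end of a U3 gene, with ESC ranks 72, 62, 58 and 57, day 3 ranks 61, 48, 50 and 56, and day 6 ranks 1009, 1084, 606 and 687. The other 7 runs held 3 sites each. They lay at the snRNA genes Gm24950, Gm23971 and Rnu2-10 described above, at H1f2, H2bc3 and H4c1 in the histone cluster of chromosome 13 (1 site with Oct4), at Pip5k1c, Cactin and Hmg20b on chromosome 10, and at Gm8493 and Crlf2 on chromosome 5, the last 2 runs without Oct4. The remaining 3 were at Elp5 and Dlg4 on chromosome 11 (1 site with Oct4), at Plcd3, Acbd4 and Hexim1 on the same chromosome (2 with Oct4), and at Gm15545, Bcl2l12 and Rras on chromosome 7 (1 with Oct4).

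Genes of 8 lists were counted when a lasting site lay inside or within 10 kb, as it did for 3.68% of the 21887 protein-coding genes. These lists were drawn up with earlier results of the same data known, so the counts describe. Of 21 genes that prior studies name as targets of Oct1, 9 had a lasting site, namely Polr2a, Ahcy (a methyl-cycle enzyme) and 7 H2B genes, some of which share a site. It was within 1 kb of a gene end for 6 of them, while H2bc6, H2bc8 and H2bu2 counted only through the wider window. An ESC Oct1 peak of any kind was at 18 of the 21 (85.7%), beside 34.9% of all protein-coding genes. H2bc4 ranked 136 in ESCs, 112 at day 3 and 4159 at day 6. H2bc22 ranked 230, 323 and 6160, and the site between H2ac7 and H2bc7 195, 179 and 5502. H2bc3 had a site of its own at 2880, 2190 and 6789. Ahcy ranked 34, 51 and 265. The H2A genes H2ac18 and H2ac19 on chromosome 3 stood higher at day 6, with ranks 665 and 707.

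An ESC Oct1 peak of any kind lay inside or within 10 kb of 34.9% of all protein-coding genes, of 14 of 20 pluripotency genes (70%) and of 9 of 26 mesoderm genes (34.6%). A lasting site was at 0 of these 20 and 0 of these 26 genes, which at 3.68% of all genes is near the background. In the neural list of 20, ESC Oct1 peaks were found for 12 genes (60%), and 4 had a lasting site, each without Oct4. Neurog1, a proneural factor gene, had it 160 bp from its end, with ranks 344, 162 and 597 and the octamer printed above. Zic1, a zinc finger gene of neural and somite development, ranked 149, 36 and 20, at 2203 bp. The site 1708 bp from Hes5, a Notch effector gene, also lies next to Pank4 and ranked 41, 37 and 25. Pax6, an eye and neural tube regulator, had one inside the gene, 276, 98 and 2385. All 4 were at rank 344 or better of 17709 in ESCs and at rank 162 or better of 4867 at day 3. Their day 6 ranks ran from 20 to 2385. Lasting sites without Oct4 had median ranks of 631 in ESCs and 397 at day 3, and the rule used these lists, so the ranks are a description.

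In the signalling lists, 2 of 34 TGF-beta, BMP and Smad genes (5.88%) and 2 of 35 Wnt and R-spondin genes (5.71%) had a lasting site. Beside 3.68% of all protein-coding genes, both counts are near the background. Smad2, which carries the signal of activin and nodal receptors, had one 205 bp inside the gene (ranks 1585, 773 and 1040). Near Tgfb1 the site ranked 17633, 2818 and 1081, and its nearest gene is B9d2. Lgr4, a receptor for R-spondins, ranked 131, 137 and 2446. The site 137 bp from Tcf7l2, a transcription factor of Wnt signalling, ranked 2949, 127 and 190. None of these 4 had an Oct4 peak. Among 40 RNA polymerase II and general transcription factor genes, 4 (10%) had a lasting site. Ercc2, a helicase subunit of TFIIH, had it 27 bp from its end (82, 53 and 34, no Oct4), and Polr2a, Polr2g and Taf6 were the other 3.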

How the data were processed

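Oct1 and Oct4 ChIP-seq peak lists of 4 libraries were used, and the 3 inputs among the 7 samples were not analysed here. Groups came from the source names. Per the submitters' processing notes, Novoalign 3.8.2 and mm10 were used. The peak caller, threshold and control are not given in the sources used here. The score in the deposited lists is a whole number without a unit, which the authors assigned to each peak. Replicates were not pooled, since each list is 1 library. The labels state 100 M read pairs for every library, and the number mapped is not given in the sources used here.

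Overlaps of at least 1 bp were computed with pandas 2.3.3 and numpy 2.4.6 under Python 3.11.15, with intervals from scipy 1.17.1 and figures from matplotlib 3.10.9, and the 532 lasting sites and the 239 with Oct4 were counted the same by bedtools 2.31.1. Genes and promoter windows came from RefSeq GRCm38.p6, the assembly behind mm10, and coordinates are 1-based. The gene table gives no strand, so either gene end was used, within 1 kb, in place of the planned start. Promoter windows covered 17492 of 21887 protein-coding genes (79.9%), with no window on chromosome 18. A site takes the name of the gene nearest to its midpoint. Sites named are the 10 highest ESC Oct1 scores with and without Oct4, the 5 highest Oct4 and day 6 scores, those at listed genes, the smallest overlaps, the farthest site and runs of 3 or more within 50 kb. Sites with an octamer, with small RNA genes and at H2ac18 and H2ac19 were named after their values were seen. Members and lists were chosen with earlier results of these data known. Overlap, motif search and gene distance were tested on simulated data. Alternatives changed the overlap, the length of the lists, clustered peaks, windows and gene sets.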

Additional observations from a re-analysis of the deposited data

How the results depend on the processing

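No paired analysis was possible because each group held 1 library, and no library could be left out. In all, 39 alternative values of 9 results were computed, and 19 of them stayed within the interval of the main one, or within 1.5 times it for counts. The causes of the changes were not tested, except for those that follow by construction. Shorter lists hold fewer overlaps. Median percentiles were taken in the full lists, so they rise once low-scoring peaks are left out. With the higher-scoring 50% of each list, 314 sites lasted, 24.8% of them with Oct4, and 73.1% of those with Oct4 and 80.5% of those without lay at gene ends. The median percentiles were then 97.4 for ESC Oct1 and 96.8 for Oct4. With every list shortened to the shortest, the values were 346 sites, 24.6%, 74.1% (81.2% without Oct4) and 97.2, while 37.3% of the ESC Oct1 peaks left had Oct4. Without peaks that stand within 10 kb of another, they were 295 sites, 31.2% and 71.7% (82.3% without Oct4), and 39.9% of the ESC Oct1 peaks left had Oct4. The share at gene ends with and without Oct4 was 76.6% and 92.2% with 5 kb, 49.0% and 71.7% with protein-coding genes, and 52.3% and 73.6% with starts of the promoter table, an alternative added after seeing the data, as were both for the octamer. Genes of the lists with a lasting site numbered 21, and 12 within 1 kb of a gene end. The difference at gene ends between sites without and with Oct4 was thus smaller in the 3 reduced sets of peaks, and it was not tested. Sites at an snRNA, RNase P or RNase MRP gene made up 2.26% by the nearest gene and 4.32% within 1 kb of an end of such a gene, also added after seeing the data. Mapped depth and thresholds are unknown, so a site missing from a list is not shown to be unbound.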
